A study of Homo sapiens with 4 samples.

Results

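The nuclear genes of oxidative phosphorylation code for most subunits of the 4 respiratory chain complexes and of ATP synthase, called complexes I to V. They were compared between 2 clones of SW620, a human cell line from a colon cancer that had spread to a lymph node. Members were the genes whose approved symbol starts as the complex I to V subunits do (NDUFA, NDUFB, NDUFC, NDUFS or NDUFV with a digit, SDHA to SDHD, UQCR, CYC1, COX4 to COX8, ATP5F, ATP5M or ATP5P) and that a probe set of the array names alone. This rule uses no measured value. It gave 81 members with 154 probe sets, of the 19777 genes named by such probe sets. Of the 81, 76 were protein-coding genes and 5 were antisense RNAs, a divergent transcript or pseudogenes that share the subunits' symbols. NDUFC2, NDUFS5, NDUFS8 and UQCRH were named only together with another gene and were not members, and SDHB is not analysed here.

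The CD133+ group was 1 clone of SW620 cells carrying the surface protein CD133, on 2 Affymetrix arrays. The CD133- group was 1 clone of SW620 cells lacking it, also on 2 arrays. Per the labels, SW620 cells were sorted by CD133 with magnetic beads and single cells were grown out as clones in L-15 medium with serum. The expanded cells were purified by CD133 again before their total RNA was taken. With 1 clone per group, an effect of CD133 cannot be told apart from one of the clone. The labels do not say whether the 2 arrays of a clone stem from separate cultures, so the p-values reflect array-to-array spread that may be purely technical.

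Values are log2 probe-set signals, and each difference is CD133+ minus CD133-, so that 1 unit is a factor of 2. A gene is represented by its brightest probe set. A gene was called at a Benjamini-Hochberg adjusted p under 0.05 over the 15821 genes tested with limma. PROM1, which encodes CD133, had log2 signals of 8.46 and 8.73 on the CD133+ arrays, against 3.31 and 3.35 on the CD133- arrays. Arrays of the same clone correlated at 0.992 and 0.992 over the genes tested, and arrays of different clones at 0.977 to 0.988. Of 10 epithelial markers, 9 lay above the level cutoff of 3.75, with the log2 of their summed signal at 15.3 on both CD133+ arrays and 15.4 on both CD133- arrays, while KRT20 lay below it. Of 5 leukocyte markers, 4 lay above the cutoff, none with a mean above 6.43, and of 7 fibroblast and endothelial markers, 6 did, none above 6.98. The log2 gap between the 3' and 5' control probe sets of ACTB was 0.71 and 1.92 in CD133+ and 1.18 and 0.92 in CD133-, and that of GAPDH was 0.097 and 0.090 in CD133+ and 0.017 and 0.026 in CD133-. The part of these gaps in the results was not tested. As deposited, the upper quartile of CD133- replicate 1 was 6.91, against 6.61 to 6.71 on the other 3 arrays.

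Oxidative phosphorylation moves electrons from NADH and succinate through complexes I to IV to oxygen, and the protons pumped on the way drive ATP synthase. Each complex other than complex II joins a few subunits encoded in mitochondrial DNA to many encoded in the nucleus, so the nuclear genes measured here make up most but not all of each complex. In colon epithelium and in colon cancer cells this pathway works beside glycolysis, and its nuclear genes are known targets of the transcription factors NRF1, GABP and YY1.

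Most subunit genes had nearly the same signal in both clones, and the few that were called were lower in CD133+. Of the 79 members tested, 3 were called lower in CD133+ (NDUFS1 of complex I, COX7C of complex IV and ATP5MC3 of complex V), 0 were called higher and 76 were not called. Over all genes tested, 3.65% were called, 1.31% higher and 2.34% lower in CD133+, so the members' share of 3.8% lay near that of all genes. Bright genes, as most members are, were called more often. At a mean log2 signal of at least 10, 6.79% of 1591 genes and 3.64% of 55 protein-coding members were called. An unadjusted p under 0.05 was reached by 16 members, of which 3 had the higher signal in CD133+ and 13 the lower, while 20.6% of all genes reached it. The CD133+ arrays lay both above the CD133- arrays for 17 of the 79 and both below for 22, against 30.4% and 21.2% of all genes (51.6% in either direction). The difference was above 0 for 38 of the 79, against 58.5% of all genes. The median difference of the members was -0.0079 and that of all genes 0.058. At a mean log2 signal of at least 10, the medians were -0.024 for protein-coding members and 0.012 for all genes. Of these bright genes, 24 of the 55 members and 836 of the 1591 genes had a difference above 0. Each array pooled RNA from many cells, so fewer expressing cells and less RNA per cell cannot be told apart.

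Differences within 0.3 were the rule: 69 of the 79 members, or 87.3%, lay within that limit, against 67.3% of all genes. Bright genes are measured more tightly, and most members are bright. Among genes with a mean log2 signal of at least 10, 92.7% of 55 protein-coding members and 84.3% of 1591 genes lay within 0.3. The median standard error of the difference was 0.088 for the members and 0.178 for all genes. The members' median moved with the scaling of the arrays, as that of all genes did. With arrays centred on their medians in place of quantile normalization it was -0.107, and that of all genes -0.051. The members' median minus that of all genes was -0.066 with quantile normalization and -0.056 as deposited. Centring shifts the difference of every gene by the same amount, so the centred value of -0.056 equals the deposited one by construction. Calls over all genes split differently too, with 35.9% of them higher in CD133+ after quantile normalization, 21.1% as deposited and 11.2% centred, while every member called under these scalings was lower.

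**Figure D1:**
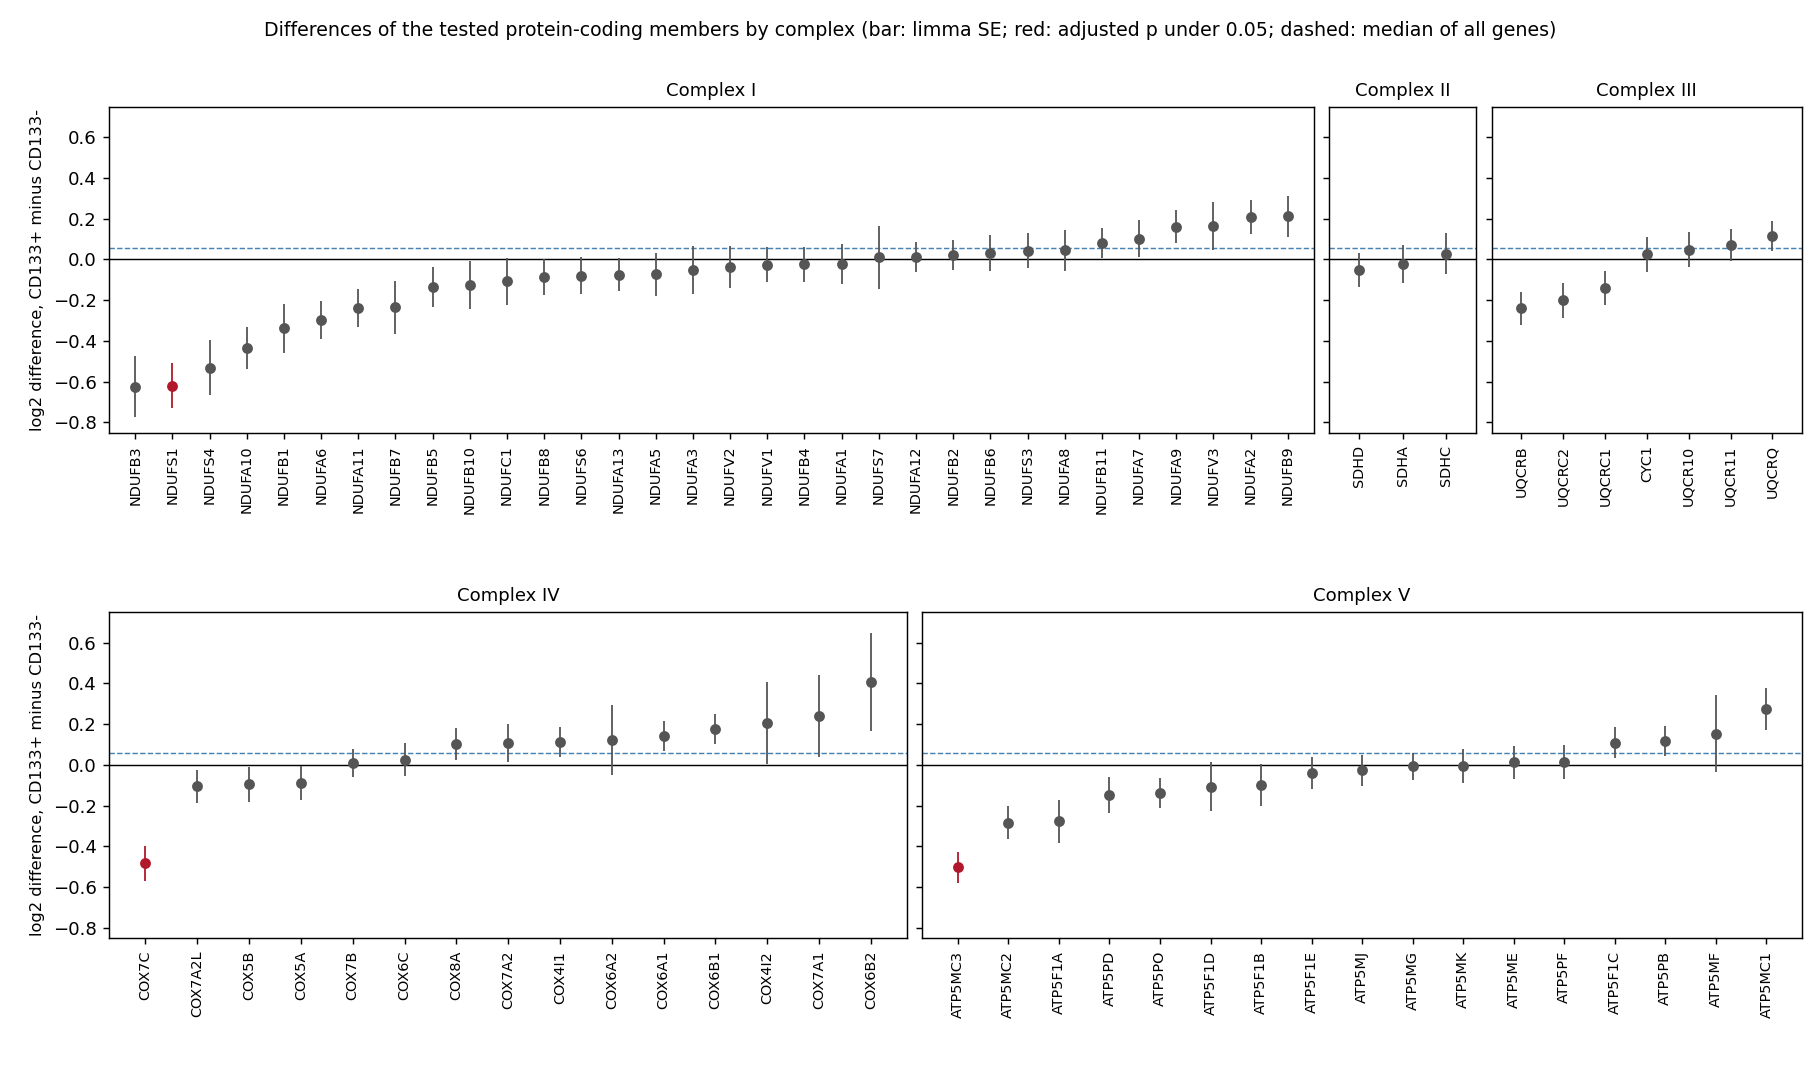
Log2 difference (CD133+ minus CD133-) of each of the 74 protein-coding members tested, 1 panel per complex, ordered by difference; points are differences of means of 2 arrays per group, bars the limma standard error, red points an adjusted p under 0.05, and the dashed line the median of all genes at 0.058. Most points lie within 0.3 of 0, and the 3 red points are NDUFS1 at -0.62, COX7C at -0.48 and ATP5MC3 at -0.50.

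Complex I takes electrons from NADH and passes them to ubiquinone. Of its 32 protein-coding members, 1 was called lower and 31 were not called, with a median difference of -0.044 and a range of -0.62 to 0.21. Of the nuclear core subunits, which carry the flavin and the iron-sulphur clusters, 5 were tested here and NDUFS1 alone was called. NDUFS1 holds iron-sulphur clusters of the NADH-oxidising arm and is encoded on chromosome 2. It had log2 signals of 9.37 and 9.15 in CD133+, against 9.90 and 9.86 in CD133-. Both CD133+ arrays lay below both CD133- arrays. The difference was -0.62 (SE 0.11, limma adjusted p = 0.0249), a signal 1.54-fold lower in CD133+. Of its 5 probe sets, 4 had a negative difference (-0.62, -0.75, -1.08 and -0.40) and 1 was positive (0.14). Those at -1.08 and -0.40 were dim, with mean log2 signals of 5.55 and 3.77, as was the positive one at 5.39. The other 4 core members, NDUFS3, NDUFS7, NDUFV1 and NDUFV2, had differences from -0.036 to 0.042.

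The 27 accessory subunits of complex I, which surround the core and are needed to build or steady it, had a median difference of -0.074, and none was called. At an unadjusted p under 0.05, 7 of them passed. NDUFB3, a membrane-arm subunit on chromosome 2, had log2 signals of 9.82 and 10.26 in CD133+, against 10.55 and 10.78 in CD133-. Its groups did not overlap, but the CD133+ arrays had an SD of 0.31 (n = 2), and the difference of -0.62 (SE 0.15, adjusted p = 0.0632) did not pass. NDUFA10, also encoded on chromosome 2, had 9.33 and 9.51 in CD133+, against 9.83 and 9.88 in CD133-. Its difference was -0.44 (SE 0.10, adjusted p = 0.0631), with all 5 probe sets negative. All but the brightest were dim, with mean log2 signals of 4.61, 4.51, 3.86 and 3.17, the last below the level cutoff. NDUFS4, whose loss causes a complex I deficiency in people and mice, lies on chromosome 5 and was picked after its values were seen. It had 9.17 and 9.50 in CD133+, against 9.76 and 9.98 in CD133-, a difference of -0.53 (SE 0.14, adjusted p = 0.0751). All 3 genes thus had non-overlapping arrays with CD133+ below, without passing the test. They were named for small p-values or after their values were seen, which makes such a separation likely. Over all genes tested, 21.2% had both CD133+ arrays below both CD133- arrays. The largest positive difference of complex I was that of NDUFB9, at 0.21 (SE 0.099, adjusted p = 0.273), with 11.95 and 12.18 in CD133+ and 11.78 and 11.93 in CD133-.

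**Figure D2:**
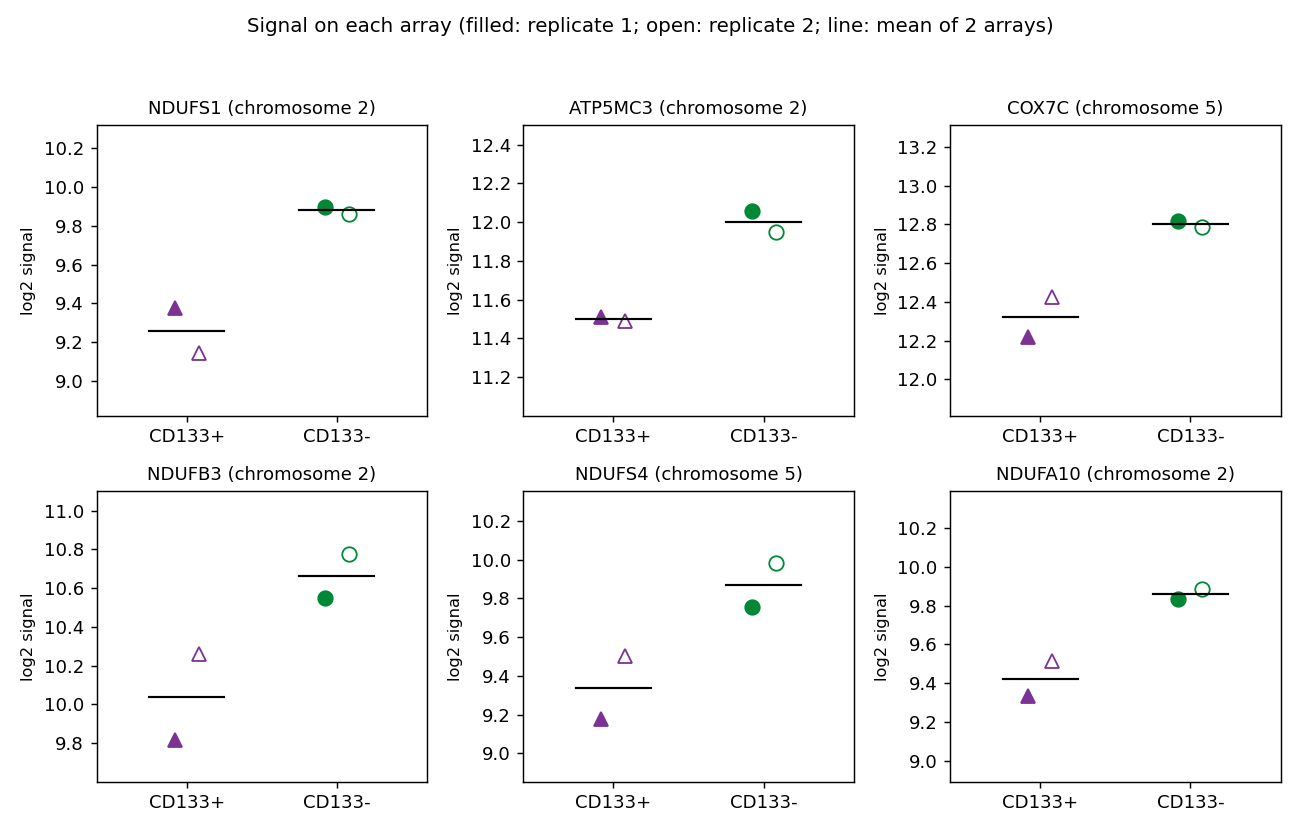
Log2 signal on each of the 4 arrays for the 6 members with the largest negative differences, CD133+ triangles left of CD133- circles, replicate 1 filled and replicate 2 open, with a line at the mean of 2 arrays; every panel spans 1.5 log2 units around its own centre. In all 6 panels both CD133+ arrays lie below both CD133- arrays, which the choice by size of difference makes likely (21.2% of all genes do). NDUFB3 and NDUFS4 show the widest gap between arrays of the same clone.

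Complex II, succinate dehydrogenase, belongs both to the respiratory chain and to the tricarboxylic acid cycle. None of its 3 members was called. SDHA, the flavin-carrying catalytic subunit, had 10.36 and 10.39 in CD133+, against 10.32 and 10.48 in CD133-, a difference of -0.024 (SE 0.093). SDHC and SDHD, which anchor the complex in the membrane and bind ubiquinone, had differences of 0.028 and -0.051. The CD133+ and CD133- arrays overlapped for SDHA and SDHC. SDHC has 7 probe sets, of which 2 were positive and 5 negative, and its sign turned as deposited (-0.032) and with centred arrays (-0.11).

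Complex III passes electrons from ubiquinol to cytochrome c. None of its 7 members was called, and the median difference of 0.025 turned negative as deposited (-0.012) and with centred arrays (-0.091). CYC1, cytochrome c1, which hands the electrons to cytochrome c, had 10.39 and 10.46 in CD133+, against 10.37 and 10.43 in CD133-, a difference of 0.025 (SE 0.087). UQCRB, a small subunit that helps to form the ubiquinone pocket, had 11.50 and 11.64 in CD133+, against 11.82 and 11.81 in CD133-. Its difference of -0.24 (SE 0.080, adjusted p = 0.147) did not pass, although all 4 of its probe sets were negative. The dimmest of them, at a mean log2 signal of 3.62, lay below the level cutoff. The core proteins UQCRC1 and UQCRC2 lay 0.14 and 0.20 below in CD133+ (differences -0.14 and -0.20, adjusted p = 0.381 and 0.235). UQCRQ had the largest positive difference, 0.11 (adjusted p = 0.405).

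Complex IV, cytochrome c oxidase, reduces oxygen with electrons from cytochrome c, and its nuclear subunits surround a catalytic core encoded in mitochondrial DNA. Of its 17 protein-coding members, 15 were tested, and 1 of these was called lower. Their median difference of 0.107 was the only one of the 5 complexes above the median of all genes, and it was 0.0009 with centred arrays. The 15 include 4 dim tissue isoforms, described below, whose differences of 0.12 to 0.40 all lie above this median and raise it. COX7C, one of the small membrane subunits encoded on chromosome 5, had 12.22 and 12.42 in CD133+, against 12.82 and 12.79 in CD133-. The groups did not overlap, and the difference was -0.48 (SE 0.084, limma adjusted p = 0.0231), a signal 1.40-fold lower in CD133+. Its other 2 probe sets had differences of -0.48 and -0.28. The other complex IV members present in every tissue had differences between -0.11 and 0.18. COX6B1, which bridges the monomers of the dimer, had 11.71 and 11.74 in CD133+ and 11.52 and 11.58 in CD133-, a difference of 0.18 (adjusted p = 0.228). COX6A1 followed at 0.14 (adjusted p = 0.306). COX7B had a bright probe set with a difference of 0.0082 and a dim one with a difference of -1.09.

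Subunit isoforms used mainly in muscle, testis or lung or under low oxygen had low signals. Of the 6 on the array, COX7B2 and COX8C lay below the level cutoff and were not tested. COX4I2, which replaces COX4I1 in lung and under low oxygen, had 4.78 and 5.02 in CD133+, against 4.60 and 4.78 in CD133-. COX6B2 had 4.69 and 5.04 in CD133+, against 4.19 and 4.73 in CD133-, the largest positive difference of any member (0.40, SE 0.24, adjusted p = 0.378). COX7A1 and COX6A2, the heart and muscle forms, differed by 0.24 and 0.12 (adjusted p = 0.532 and 0.731). The 4 tested isoforms had positive differences with a median of 0.22, none passed, and their arrays overlapped for all but COX7A1. Over all genes tested, 58.5% had a difference above 0, with a median of 0.058. A comparison with equally dim genes was not made. The 5 muscle markers on the array had a median difference of 0.21, and none was called. They were dim and of both signs, 3 positive and 2 negative, with a range of -0.39 to 0.58. The log2 of their summed signal was 7.14 and 7.11 in CD133+ and 6.82 and 6.99 in CD133-, and their part in the isoforms' values was not tested.

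Complex V, ATP synthase, makes ATP as protons pass its ring of c subunits. Of its 17 members, 1 was called lower and 16 were not called, with a median difference of -0.027. The 3 genes ATP5MC1, ATP5MC2 and ATP5MC3 code for c subunits whose mature protein is the same. ATP5MC3 (chromosome 2) had 11.51 and 11.49 in CD133+, against 12.06 and 11.95 in CD133-. The groups did not overlap, and the difference was -0.50 (SE 0.077, limma adjusted p = 0.0173), a signal 1.42-fold lower in CD133+. Its other probe sets had differences of -0.63 and -0.037. ATP5MC2 had 11.98 and 12.15 in CD133+, against 12.37 and 12.32 in CD133-, a difference of -0.28 (adjusted p = 0.103). ATP5MC1 ran the other way, with 9.64 and 9.72 in CD133+ and 9.33 and 9.48 in CD133-, a difference of 0.27 (adjusted p = 0.188). The c-ring genes thus had differences of both signs, and 1 of 3 passed. None of the 5 genes of the F1 head and central stalk was called (median difference -0.099), and none of the 4 of the peripheral stalk (-0.062). ATP5F1A, the alpha subunit of the head that makes ATP, had the largest of these, -0.28 (SE 0.10, adjusted p = 0.188), with 11.65 and 11.37 in CD133+ and 11.84 and 11.73 in CD133-.

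The 3 calls rested on few arrays. Without CD133- replicate 1 none of the 3 passed (adjusted p = 0.138 for ATP5MC3, 0.134 for COX7C and 0.161 for NDUFS1). Without CD133- replicate 2 only ATP5MC3 passed (adjusted p = 0.0399). With probe sets averaged per gene or with limma's variance not following the signal level, 0 members were called. The differences of the 3 genes stayed negative under every setting tried, between -0.59 and -0.39 for ATP5MC3, -0.59 and -0.38 for COX7C, and -0.76 and -0.51 for NDUFS1.

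The 3 called genes lie on chromosomes 2 and 5, as do the next 3 members by size of negative difference, NDUFB3, NDUFS4 and NDUFA10. The genes around each member were therefore read from the same fit, a step added after the differences were seen. For each member the 10 nearest tested genes on each side that are no members were taken, fewer at a chromosome end, and members close together can share some of them. The 20 neighbours of COX7C had a median difference of -0.60, and 10 of them were called lower. Those of NDUFB3 had a median of -0.57 with 9 called lower, those of NDUFS1 -0.45 with 6, those of NDUFS4 -0.43 with 5, and those of ATP5MC3 -0.32 with 7. None of these neighbours was called higher. With 50 neighbours the medians were -0.53, -0.52, -0.42, -0.42 and -0.65 in the same order. With only the nearest 10 they were -0.43, -0.67, -0.21, -0.59 and -0.24, and 1 of the 10 nearest neighbours of NDUFS1 and 2 of those of ATP5MC3 were called lower. NDUFA10 had a median over 20 neighbours of -0.12, with 5 called lower.

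The 5 members with a median over 20 neighbours below -0.3, a limit set after seeing the values that NDUFS1 and ATP5MC3 do not meet with the nearest 10, had differences of -0.62 to -0.48. The other 69 protein-coding members tested had neighbour medians of -0.13 to 0.30, differences of -0.44 to 0.40, and 0 calls. The other members on the same 2 chromosomes had neighbour medians of -0.12 to 0.075, the lowest being that of NDUFA10, whose own difference was -0.44. On chromosome 5, NDUFA2 differed by 0.21 (neighbours 0.061), UQCRQ by 0.11 (0.0095), NDUFS6 by -0.079 (0.075) and SDHA by -0.024 (-0.054). On chromosome 2, COX5B differed by -0.096 (neighbours -0.048) and COX7A2L by -0.11 (-0.053). Of these, NDUFA2, NDUFS6, COX5B and COX7A2L were named for their place, after their values were seen. As a description over members that share the same 4 arrays, the difference of a member and its neighbour median correlated with Pearson's r of 0.63 and Spearman's rho of 0.31 over 74 members, 0.49 and 0.22 without the 3 called, and 0.14 and 0.098 over the 62 outside chromosomes 2 and 5. Of those 62, 0 were called, and their median difference was 0.0098 with a range of -0.34 to 0.40. The part that chromosomal position has in these differences was not tested.

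**Figure D3:**
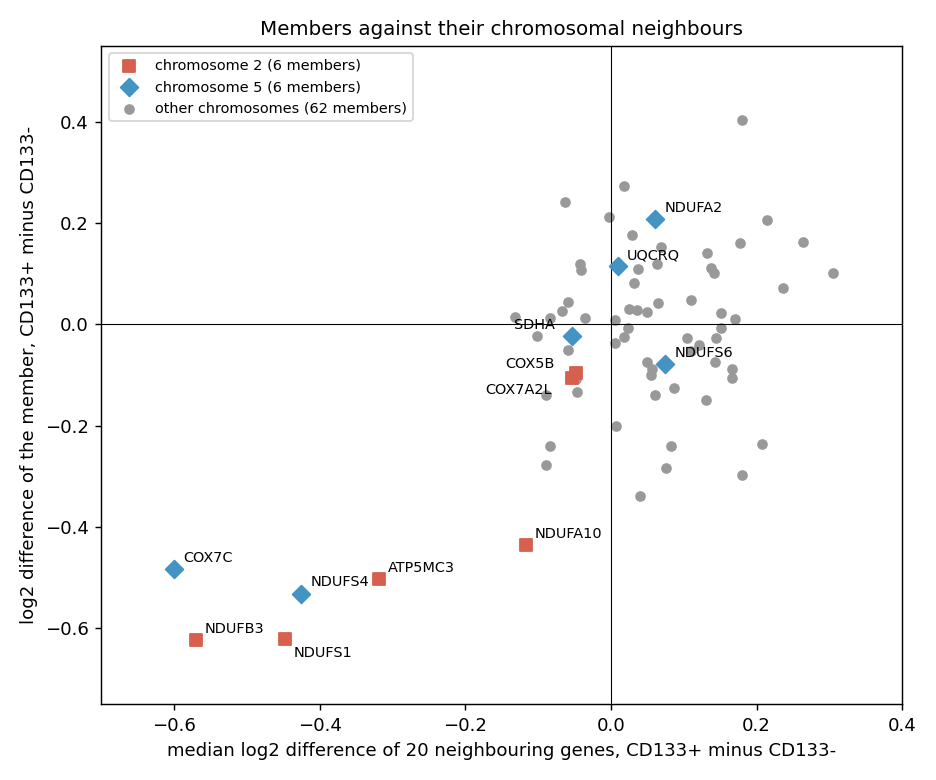
Log2 difference (CD133+ minus CD133-) of each of 74 protein-coding members, vertical axis, against the median difference of up to 20 neighbouring genes, horizontal axis; red squares are members on chromosome 2, blue diamonds on chromosome 5 and grey points elsewhere. COX7C, NDUFB3, NDUFS4, NDUFS1 and ATP5MC3 lie apart at the lower left, with neighbour medians from -0.60 to -0.32, and the grey points show little trend (r = 0.14).

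The promoters of the called genes NDUFS1 and COX7C are shown with the motifs of the 3 factors that are known regulators of these genes. For the called gene ATP5MC3 no promoter sequence was available. Sequences are from RefSeq (GRCh38.p14) and run from 250 bases before the start site to 50 after it, 5′ to 3′ on the gene's strand. Capitals mark a match to a motif on either strand. NDUFS1 is at chr2:206159395-206159694 on the minus strand and COX7C at chr5:86617691-86617990 on the plus strand.
NDUFS1: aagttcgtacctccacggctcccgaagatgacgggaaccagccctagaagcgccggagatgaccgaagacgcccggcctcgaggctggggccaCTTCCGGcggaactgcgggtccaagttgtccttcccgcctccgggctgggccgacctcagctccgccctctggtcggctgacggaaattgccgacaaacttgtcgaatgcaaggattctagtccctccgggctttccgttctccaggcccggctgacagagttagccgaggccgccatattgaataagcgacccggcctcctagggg
COX7C: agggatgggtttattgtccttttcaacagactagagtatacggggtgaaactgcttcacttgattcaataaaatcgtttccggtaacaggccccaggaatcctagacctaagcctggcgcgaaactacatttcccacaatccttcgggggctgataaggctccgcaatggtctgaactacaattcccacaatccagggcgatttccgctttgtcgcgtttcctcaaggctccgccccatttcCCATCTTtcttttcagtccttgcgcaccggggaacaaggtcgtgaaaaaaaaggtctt
The motifs searched were GCGCATGCGC for NRF1, CCGGAAG for GABP (CTTCCGG on the other strand) and AAGATGG for YY1 (CCATCTT on the other strand). The motifs share no overlapping match in the promoters shown. The NDUFS1 promoter held 1 GABP match, its first base at position -157 from the start site, and that of COX7C held 1 YY1 match, its first base at -8. Of the 64 protein-coding members whose promoter was searched, 4 held the NRF1 motif (6.25%), 18 the GABP motif (28.1%) and 15 the YY1 motif (23.4%). The shares among the 27305 promoters searched were 1.36%, 10.7% and 6.06%. Promoters on a chromosome left out of the search, members' promoters included, are not in these counts. Members on other chromosomes without an available promoter sequence, ATP5MC3 among them, are missing from these counts too. The tested members with the GABP motif had a median difference of 0.0028 (18 genes, 1 called lower), and those without it -0.032 (44 genes, 1 called lower). With the YY1 motif the median was -0.0079 (15 genes) and without it -0.024 (47 genes). A match is only a run of letters in this window.

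The other genes of the pathway came from lists of assembly factors, electron carriers, regulators of mitochondrial gene expression, enzymes of the tricarboxylic acid cycle and transport proteins, with 106 genes on the array. Of the 103 tested, 2 were called higher, 6 lower and 95 not called, 7.77% against 3.65% of all genes, with a median difference of -0.107. Their median standard error was 0.121, against 0.178 for all genes. With genes below the median level left out of the fit, 6.72% of the remaining genes were called. The 2 higher calls, COA1 and CYCS, were lost as deposited and also with centred arrays, and of the 6 lower calls, GABPA and TFB1M were lost as deposited and TFB1M with centred arrays. None of the 8 calls held with the mean over a gene's probe sets or without CD133- replicate 1.

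Of the regulators, which switch on nuclear or mitochondrial genes of the respiratory chain, 3 of 13 were called lower and 0 higher, with a median difference of -0.21 (-0.35 as deposited and -0.43 centred). GABPA, the DNA-binding subunit of GABP, had 5.93 and 6.15 in CD133+, against 7.05 and 6.87 in CD133-, a difference of -0.91 (SE 0.20, limma adjusted p = 0.0472). YY1 had 10.58 and 10.49 in CD133+, against 11.24 and 10.99 in CD133-, a difference of -0.58 (SE 0.10, adjusted p = 0.0250). Of its 6 probe sets only 3 were negative, and their mean difference was -0.081 (adjusted p = 0.827). TFB1M, which methylates mitochondrial ribosomal RNA, had 8.65 and 8.59 in CD133+, against 9.24 and 9.10 in CD133-, a difference of -0.54 (SE 0.11, adjusted p = 0.0425). Of its 4 probe sets 3 were negative, and their mean difference was -0.31 (adjusted p = 0.277). In all 3 the groups did not overlap, as is likely for called genes (51.6% of all genes did not overlap). The neighbour medians of the 3 were -0.11, 0.19 and 0.058.

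Of the 8 carriers and other inputs to ubiquinone, 1 was called higher and 1 lower. CYCS, cytochrome c, had 12.75 and 12.85 in CD133+, against 12.46 and 12.44 in CD133-, a difference of 0.35 (SE 0.071, adjusted p = 0.0386). GPD2, the mitochondrial glycerol phosphate dehydrogenase that feeds electrons to ubiquinone, had 7.60 and 7.90 in CD133+, against 8.62 and 8.57 in CD133-, a difference of -0.84 (SE 0.15, adjusted p = 0.0231). CYCS lies on chromosome 7 among neighbours with a median of 0.29, and GPD2 on chromosome 2 among neighbours with a median of -0.34. Of the 11 cycle enzymes, only SUCLG2, a subunit of the GTP-forming succinyl-CoA ligase, was called. It had 7.65 and 8.45 in CD133+, against 9.14 and 9.23 in CD133-, a difference of -1.13 (SE 0.23, adjusted p = 0.0384), and its neighbours had a median of 0.022. Averaged over 4 probe sets, its difference was -0.63 (adjusted p = 0.0858), and it was -0.73 in the brightest probe set without CD133+ replicate 1. OGDH of the cycle, on chromosome 7, had a difference of 0.56 (adjusted p = 0.0761) and a neighbour median of 0.46.

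Few assembly factors passed the test. Of 16 factors for complex I, COA1 alone was called, higher in CD133+, with 9.29 and 9.39 in CD133+ and 8.79 and 8.62 in CD133-, a difference of 0.64 (SE 0.12, adjusted p = 0.0263) on chromosome 7, where its neighbours had a median of 0.48. Of its 4 probe sets 3 were positive, and their mean difference was 0.15 (adjusted p = 0.627). NDUFAF5, which modifies a core subunit during assembly, differed by -0.42 (adjusted p = 0.0953). NDUFAF2 on chromosome 5 and NDUFAF3 on chromosome 3, both named after their values were seen, differed by -0.44 and -0.46 (adjusted p = 0.101 and 0.103), with neighbour medians of -0.63 and 0.10. Of 24 complex IV factors, FASTKD2, an RNA-binding protein of mitochondria encoded on chromosome 2, was called lower. It had 6.79 and 6.45 in CD133+, against 7.63 and 7.52 in CD133-, a difference of -0.96 (SE 0.19, adjusted p = 0.0342), with a neighbour median of -0.21. Of the 4 complex II, 6 complex III and 5 ATP synthase factors none was called. BCS1L of complex III on chromosome 2 came nearest, with a difference of -0.42 (adjusted p = 0.0539). SDHAF1 of complex II ran the other way, at 0.62 (adjusted p = 0.0720). None of the 4 supercomplex and hypoxia factors and none of 12 carriers, channels, import proteins and matrix chaperones was called. The median of these 12 was 0.011, and it turned negative as deposited (-0.044) and centred (-0.12), where 1 of them, the chaperone HSPD1 on chromosome 2, was called lower.

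**Figure D4:**
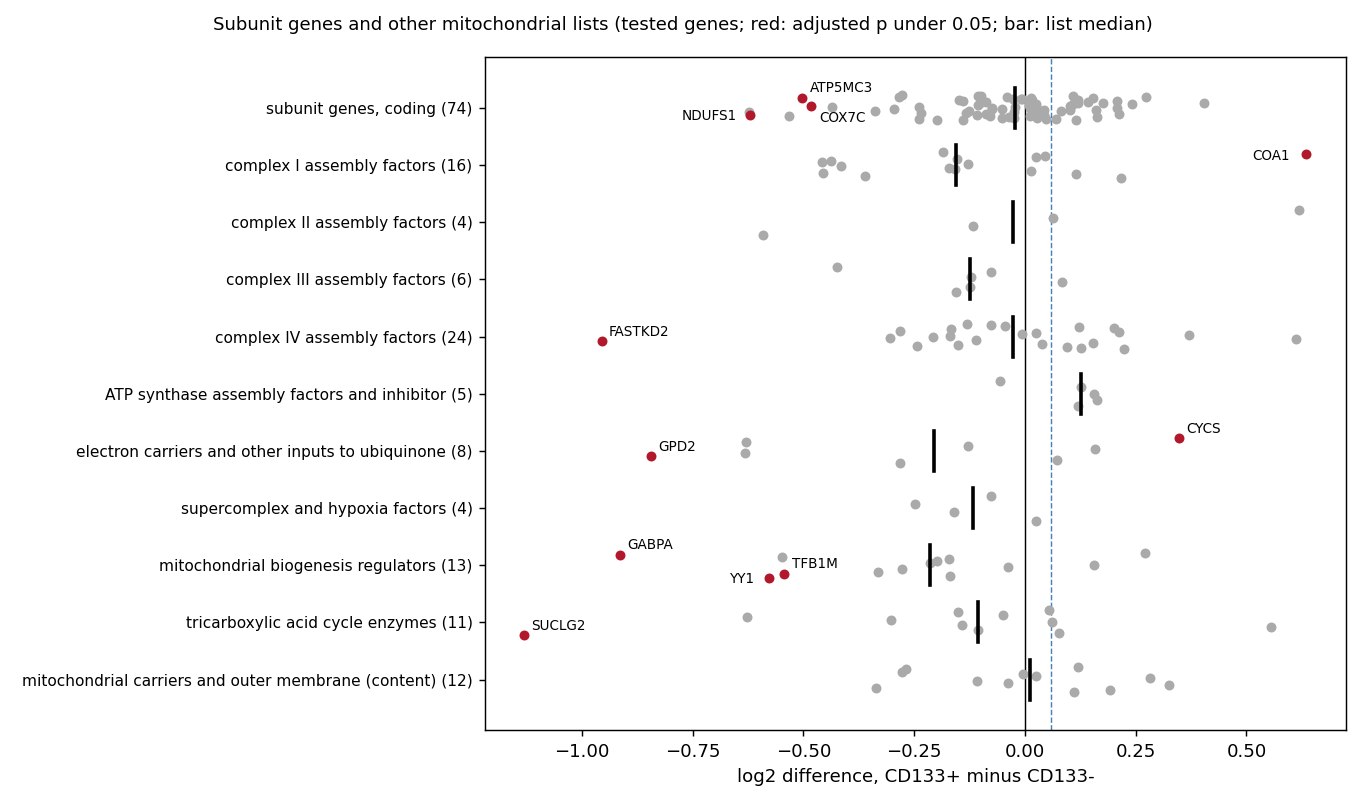
Log2 difference (CD133+ minus CD133-) of each tested gene, horizontal axis, for the 74 protein-coding subunit genes and 10 other lists, with the number of genes in brackets; red points passed an adjusted p of 0.05, black bars are list medians and the dashed line is the median of all genes at 0.058. The 3 red points among the subunit genes lie left of 0, as do those of the regulators (GABPA, YY1 and TFB1M), and COA1 and CYCS are the 2 red points right of it.

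Probe sets of the same gene did not always agree in sign. Of the 44 members with more than 1 probe set, 25 had all of them on the side of the brightest. Besides COX7B and NDUFS1, a probe set above the level cutoff pointed the other way and stood more than 0.5 from the brightest, in each case a dim one, for ATP5F1C (0.11 in the brightest, -0.62 in the dim one), NDUFB2 (0.023 and -0.65), ATP5PB (0.12 and -0.49) and ATP5F1A (-0.28 and 0.33). Smaller gaps were seen in brighter probe sets too, as for NDUFB10, named after its values were seen (-0.13 and 0.30). The 1 probe set that names ATP5MF alone was dim, at 4.32 and 4.14 in CD133+ and 4.26 and 3.89 in CD133-. The 5 non-coding members, which share a symbol stem with a subunit gene or overlap it, had low to middle signals, and none was called. The largest of them, NDUFB2-AS1, differed by 0.35 (adjusted p = 0.396), while NDUFB2 itself differed by 0.023. The array cannot be assumed to keep every antisense or pseudogene transcript apart from its parent gene.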

How the data were processed

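Gene expression was measured on 2 arrays of a CD133+ and 2 arrays of a CD133- clone of SW620. The deposited table holds log2 signals of 54675 probe sets, made by the authors with Affymetrix Expression Console per the submitters' processing notes. Its version, background correction and normalization are not given in the sources used here. Because the deposited array medians spread by 0.144, more than 0.1, values were quantile normalized, which removes any overall difference in distribution. Probe sets were named from the platform annotation, and 19735 of 19777 genes matched RefSeq (GRCh38.p14), used for chromosomes and neighbour order. The brightest probe set stood for a gene, and the lowest 20% of genes by mean level, below 3.75, were left out. limma 3.58.1 in R 4.3.3 (lmFit, eBayes with trend, Benjamini-Hochberg) compared the groups. The fit was tested on simulated data. Summaries used Python 3.11.15, numpy 2.4.6 and pandas 2.3.3. With 2 arrays per group an exact permutation test of 1 gene cannot give a p below 0.333, so calls rest on limma's pooling of variances (6.17 prior degrees of freedom). Precision is limited by there being only 4 arrays.

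The members, the gene lists and the neighbour step were chosen with earlier results of these data known. The rule for named genes took PROM1, every called member, the 3 members per complex with the smallest p and those with the largest difference in each direction, all complex II members, the tissue isoforms, members with a probe set above the cutoff of opposite sign and more than 0.5 away, and in each other list the called genes and up to 2 with the smallest p. Alternatives were the scaling, the filter, the probe set choice, the variance model, the threshold, the replicate block and leaving out each array.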

Additional observations from a re-analysis of the deposited data

How the results depend on the processing

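Over all genes, 577 were called, and 413 to 665 as deposited, with centred arrays, with other level filters or with robust variances. The count was 247 with the mean of probe sets, 12 without a variance trend, 50 at an adjusted p under 0.01, and 124 to 706 when leaving out 1 array. The 3 member calls became 5 as deposited and 5 with centred arrays (NDUFB3 and NDUFS4 added). They became 0 with the mean of probe sets, 0 without a trend, 0 at 0.01, and 0 to 8 when leaving out 1 array (0 without CD133- replicate 1, 1 without CD133- replicate 2, 8 without CD133+ replicate 2). Without a trend or at the stricter threshold few genes passed in all, and an array left out leaves a lone array assumed to vary like the other group. The cause of the other changes was not tested. The members' median was -0.107 with centred arrays, -0.038 to 0.041 when leaving out 1 array, and 0.0124 and -0.0235, alternatives added after seeing the data, without chromosomes 2 and 5 and for coding members alone. With the replicate number as a block, 3030 genes and 14 members were called (12 lower, 2 higher). Labels give the numbers no shared batch, so the numbers were not read as pairs. The deviations of same-numbered arrays from their group means correlated at 0.429 over genes. With 2 numbers both correlations are equal by construction, but their size is not fixed. Whether same-numbered arrays share a batch was not tested.

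Over 53 named genes and 683 alternative values, 560 kept sign and side of the threshold, 34 passed it, 66 lost it and 23 turned sign. The mean of probe sets turned ATP5F1A (0.0243), ATP5F1C (-0.0626), ATP5PB (-0.183), COX7B (-0.540), NDUFB2 (-0.149), SDHC (-0.0644), ATPAF1 (-0.228), HIGD2A (0.0007) and SLC25A3 (0.0241). Values as deposited turned COX7B (-0.012) and SDHC (-0.0315). Centred arrays turned COX7B (-0.0908), NDUFB2 (-0.0596), SDHC (-0.110), ATPAF1 (-0.0412) and TMEM70 (-0.0016). Leaving out an array gave ranges across 0 for COX6A2 (-0.0271 to 0.267), COX7B (-0.0133 to 0.0298), NDUFB2 (-0.0013 to 0.048), NDUFS6 (-0.163 to 0.005), SDHA (-0.103 to 0.0549), SDHC (-0.0394 to 0.0955) and HIGD1B (-0.535 to 0.0368).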
